A study of Mus musculus with 6 samples.

Results

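The genes described here are Sfrp4 and its relatives among the secreted antagonists of Wnt signalling, together with Axin2. Of 10 genes listed (Sfrp1, Sfrp2, Sfrp4, Sfrp5, Frzb, Dkk1, Dkk2, Dkk3, Wif1 and Axin2), 9 had a row of their own among the 16700 rows of the array table and were selected by gene symbol. Dkk1 lay only on a row that also carried Ppp1r2 and a Ppp1r2 pseudogene, so its values could not be assigned to 1 gene. The list was drawn up with the difference of Sfrp4 between ATF4 and control arrays already known. The values of the 9 genes in that comparison are therefore a description, with no test. Axin2 is not secreted and stands in the list as a readout of the pathway inside the cell.

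The cells were C2C12 myotubes, the fused and differentiated form of a mouse myoblast line. In the ATF4 group (3 arrays) they had been infected with an adenovirus that makes eGFP and ATF4 with a FLAG tag. In the control group (3 arrays) the adenovirus made eGFP and FLAG-tagged ATF4 lacking its bZIP domain, so both groups carried virus, eGFP and part of ATF4. RNA was collected 48 hours after infection and hybridised to exon arrays for the mouse from Affymetrix, each sample on its own array and with a sample number of 1 to 3 in each group. The labels name no separate cultures, so the spread between arrays may be technical, and uninfected myotubes were not analysed here. Levels are log2 values as deposited by the authors, the log2 scale being inferred from their range. Rows of different genes have different probes, so a level is compared only with the level of the same gene.

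Wnt proteins are secreted signals that bind Frizzled receptors and the co-receptors Lrp5 and Lrp6, which stabilises beta-catenin and lets it switch on target genes with TCF/LEF factors. Secreted frizzled-related proteins carry a cysteine-rich domain like that of Frizzled and can bind Wnt proteins outside the cell. Wif1 also binds Wnt proteins, whereas the Dickkopf proteins Dkk1 and Dkk2 act on the co-receptors. Axin2 is a scaffold of the complex that marks beta-catenin for destruction and is itself a target of beta-catenin. In muscle, Wnt signals take part in the commitment and differentiation of muscle precursor cells.

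Sfrp4 was higher on each ATF4 array than on any control array. This secreted frizzled-related protein (transcript cluster 6805134) had levels of 6.70, 7.01 and 6.51 on control arrays 1, 2 and 3. On ATF4 arrays 1, 2 and 3 its levels were 8.53, 8.72 and 8.37. The lowest ATF4 array stood 1.36 above the highest control array on the log2 scale, so the groups did not overlap. The group means were 6.74 ± 0.25 in control and 8.54 ± 0.17 in ATF4 (SD, n = 3), which differ by 1.80 (standard error 0.20). That is 3.48-fold, with a 95% interval of 2.57 to 4.71 from the limma fit over all rows. Within the same sample number the difference was 1.83, 1.71 and 1.86 for numbers 1, 2 and 3. With the sample number as a block the interval narrowed to 3.02 to 4.02-fold. Sfrp4 moved from the 67.2 to 74.7 percentile of control arrays to the 92.7 to 94.1 percentile of ATF4 arrays. By signed difference, with the largest rise first, it stood at place 34 of the 16700 rows.

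**Figure D1:**
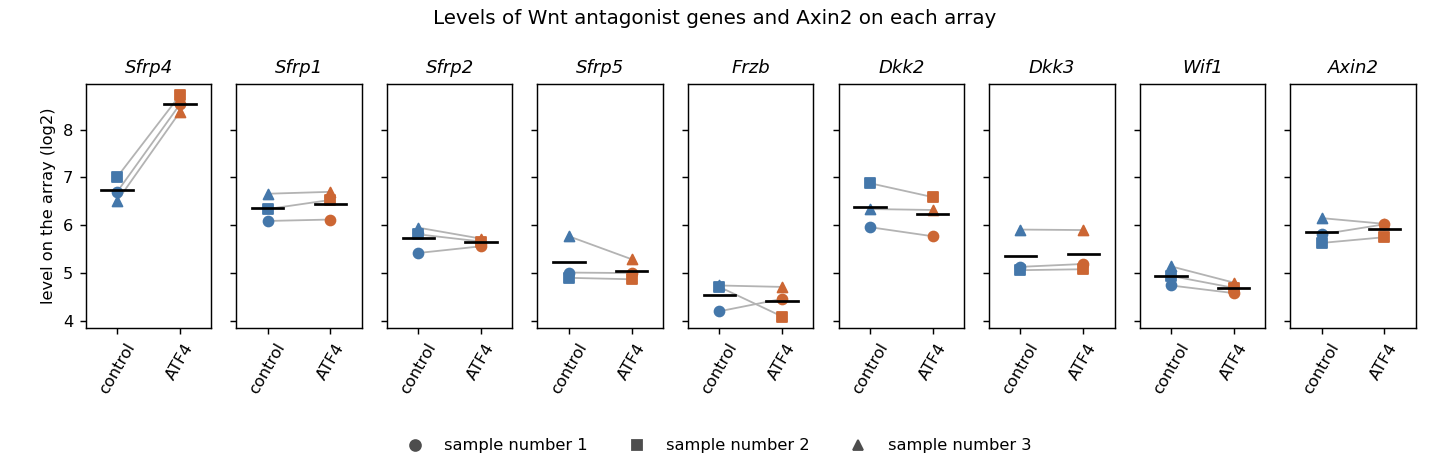
Level (log2) of each gene on each array, one panel per gene; points are arrays, their shape gives the sample number, grey lines join arrays of the same number and black bars are group means (n = 3). Sfrp4 runs from 6.51 to 7.01 in control and from 8.37 to 8.72 in ATF4 arrays, while the groups of the other 8 genes overlap.

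In the limma fit over all rows, Sfrp4 was 1 of 9 genes of the list past an adjusted p of 0.05, against 0.593% of all rows, and with the block it was again 1 of 9, against 3.56% of all rows. Since the list was built around this gene, nothing is read from those counts. The groups did not overlap for 1 of the 9 genes, against 9.12% of all rows. The other 8 genes had differences between -0.25 and 0.09 with a median of -0.10, beside a median of -0.03 over all rows. Of these 8, 5 had a lower and 3 a higher mean in ATF4 arrays.

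The nearest relatives of Sfrp4, the other secreted frizzled-related proteins, differed little between groups. Sfrp1 had 6.09, 6.34 and 6.66 on control arrays 1, 2 and 3 and 6.12, 6.53 and 6.70 on the ATF4 arrays of the same numbers. The level followed the sample number in both groups, lowest on number 1 and highest on number 3, and the difference was 0.09 (standard error 0.22, 95% interval -0.40 to 0.58). Sfrp2 had 5.42, 5.81 and 5.95 in control and 5.56, 5.66 and 5.72 in ATF4 arrays, a difference of -0.08 (interval -0.51 to 0.35). All 3 of its ATF4 values lay inside the control range, with an SD of 0.08 in ATF4 and 0.27 in control arrays. Sfrp5 had 5.01, 4.90 and 5.77 in control and 5.0, 4.87 and 5.29 in ATF4 arrays. Its difference of -0.17 (interval -0.72 to 0.37) came mainly from number 3, where the pair differed by -0.48, against -0.01 and -0.03 for numbers 1 and 2. Frzb, also known as Sfrp3, had 4.20, 4.71 and 4.74 in control and 4.46, 4.09 and 4.71 in ATF4 arrays. Its pairs disagreed in sign, with 0.26, -0.63 and -0.02 for numbers 1, 2 and 3. Frzb lay between the 10.9 and 22.5 percentile of all rows on the arrays, and no detection calls were used, so a difference of this row may be understated.

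Dickkopf genes showed a spread between sample numbers that was larger than the difference between groups. Dkk2, which binds the Wnt co-receptors, had 5.96, 6.88 and 6.34 on control arrays 1, 2 and 3 and 5.77, 6.59 and 6.32 on ATF4 arrays. Number 2 was high and number 1 low in both groups, over a range of 1.11 on the log2 scale, while the groups differed by -0.17 (interval -0.78 to 0.45). Each of its 3 numbered pairs was lower in ATF4, by -0.19, -0.29 and -0.02, and with the block the interval was -0.39 to 0.06. Dkk3, a divergent Dickkopf protein, had 5.13, 5.06 and 5.91 in control and 5.19, 5.08 and 5.90 in ATF4 arrays. Number 3 stood apart in both groups, whereas the numbered pairs differed by 0.06 at most and the difference was 0.02 (interval -0.61 to 0.66, and -0.17 to 0.22 with the block). The row that Dkk1 shares with Ppp1r2 had 4.79, 5.15 and 5.79 in control and 4.86, 5.07 and 5.61 in ATF4 arrays, which cannot be credited to Dkk1.

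Wif1, which binds Wnt proteins through its WIF domain, had the lowest difference of the 9 genes. Its levels were 4.74, 4.94 and 5.14 on control arrays 1, 2 and 3 and 4.58, 4.69 and 4.80 on ATF4 arrays. The groups overlapped, since ATF4 array 3 lay above control array 1. The difference was -0.25 (standard error 0.18, interval -0.66 to 0.15), and each numbered pair was lower in ATF4, by -0.16, -0.25 and -0.35. With the block the interval was -0.46 to -0.04. That is a fold of 0.726 to 0.972. These intervals are not adjusted for the number of rows, and Wif1 did not pass the threshold on adjusted p in either fit. Its row lay between the 19.4 and 27.9 percentile of all rows on the arrays. As for Frzb, a difference of this row may therefore be understated.

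**Figure D2:**
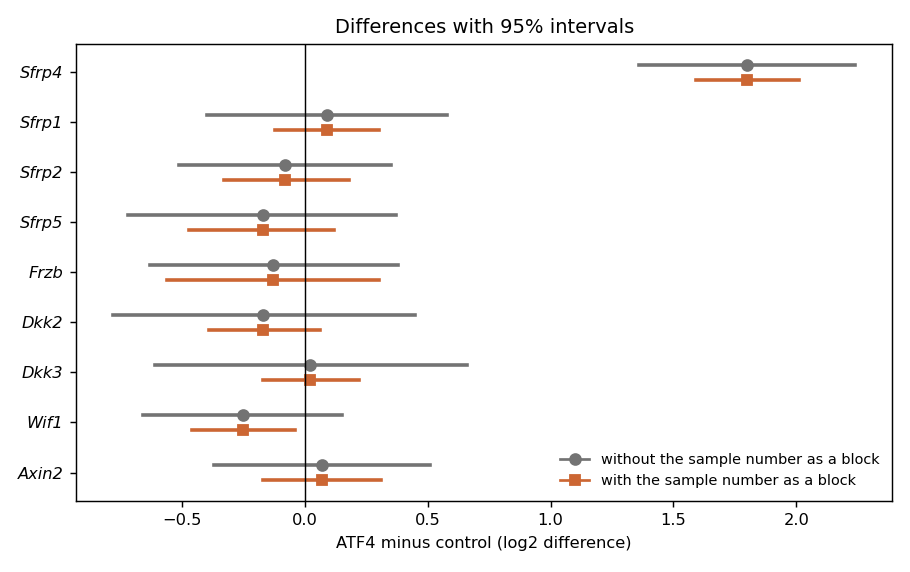
ATF4 minus control (log2 difference) for the 9 genes with 95% intervals from the limma fits over all rows, in grey without and in orange with the sample number as a block. The interval of Sfrp4 runs from 1.36 to 2.24 without the block, and the intervals of the other 8 genes lie between -0.78 and 0.66.

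Axin2, the beta-catenin target that serves as a readout of the pathway, had 5.81, 5.63 and 6.15 on control arrays 1, 2 and 3 and 6.02, 5.75 and 6.03 on ATF4 arrays. All 3 ATF4 values lay inside the control range. The difference was 0.07 (standard error 0.20), with an interval of -0.37 to 0.51, or 0.776 to 1.42-fold, and of 0.887 to 1.24-fold with the block. The numbered pairs differed by 0.21, 0.12 and -0.12. Over the 8 genes other than Sfrp4 the intervals together reached from 0.582 to 1.58-fold without and from 0.679 to 1.24-fold with the block.

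Start-site windows from RefSeq (build GRCm38.p6) were at hand for 7 of the 10 listed genes, each with 250 bases before and 50 after the gene's start. Sfrp1, Sfrp4 and Dkk3 had no window. Both strands were searched for the core of the composite site that ATF4 binds with C/EBP factors, TGATGNAA, and for the TCF/LEF core, CTTTGAT. The ATF4 core lay in 0 of the 7 windows, against 3.97% of all 32851 windows of that length, and the TCF/LEF core in 0 of 7, against 3.73%. Slc7a11, the cystine and glutamate exchanger, held the ATF4 core on both strands, starting 66 and 47 bases before the gene's start. The 100 bases before the start are shown for Axin2 as the pathway readout, for Frzb as a relative of Sfrp4 and for Slc7a11 to show what the searched core looks like. Capitals mark the ATF4 core, in either strand's letters, and the windows are chr11:108920249-108920348 (+), chr2:80447397-80447496 (-) and chr3:50443614-50443713 (-), each read 5′ to 3′ along the gene.
Axin2: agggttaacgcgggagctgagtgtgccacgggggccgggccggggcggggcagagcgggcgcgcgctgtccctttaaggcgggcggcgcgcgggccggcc
Frzb: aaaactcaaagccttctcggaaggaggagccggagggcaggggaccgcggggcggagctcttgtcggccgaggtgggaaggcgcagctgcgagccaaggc
Slc7a11: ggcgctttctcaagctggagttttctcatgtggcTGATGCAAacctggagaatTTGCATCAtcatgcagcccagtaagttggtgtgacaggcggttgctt

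These matches describe letters in a window and are not evidence of binding. Slc7a11 also checks that the constructs acted differently. Its levels were 4.30, 3.99 and 4.35 on control arrays and 7.68, 7.66 and 7.12 on ATF4 arrays.

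The genes other than Sfrp4 varied together with the sample number. On control array 3, 7 of the 8 had their highest level of the group, and on ATF4 array 3 again 7 of 8, with Dkk2 the exception in both groups. Rows of a like mean level behaved in much the same way, with 72.3% of 8017 such rows highest on control array 3 and 69.4% highest on ATF4 array 3. The deviation of the 8 genes from their group mean had a median of 0.25 on control array 3 and 0.17 on ATF4 array 3, beside 0.24 and 0.18 for rows of like level. Sfrp4 went the other way, at -0.23 and -0.17 on these arrays, as did rows above the 75th percentile of mean level, with medians of -0.28 and -0.17. The number 3 arrays were narrower, with an interquartile range over all rows of 1.63 in control and 1.80 in ATF4, against 2.19 to 2.28 on the other 4 arrays. After quantile normalization was applied again, fewer of the 8 genes had their highest level on a number 3 array, 4 in control (Sfrp1, Sfrp5, Dkk3 and Axin2) and 2 in ATF4 (Sfrp1 and Dkk3). Dkk3 then stood at 5.73 and 5.81 on the number 3 arrays, against 5.13 to 5.31 on the other 4. Sfrp4 then had 6.65, 6.95 and 6.56 in control and 8.40, 8.61 and 8.53 in ATF4 arrays, a difference of 1.79. The part of the narrower arrays in the levels of single genes was not tested.

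**Figure D3:**
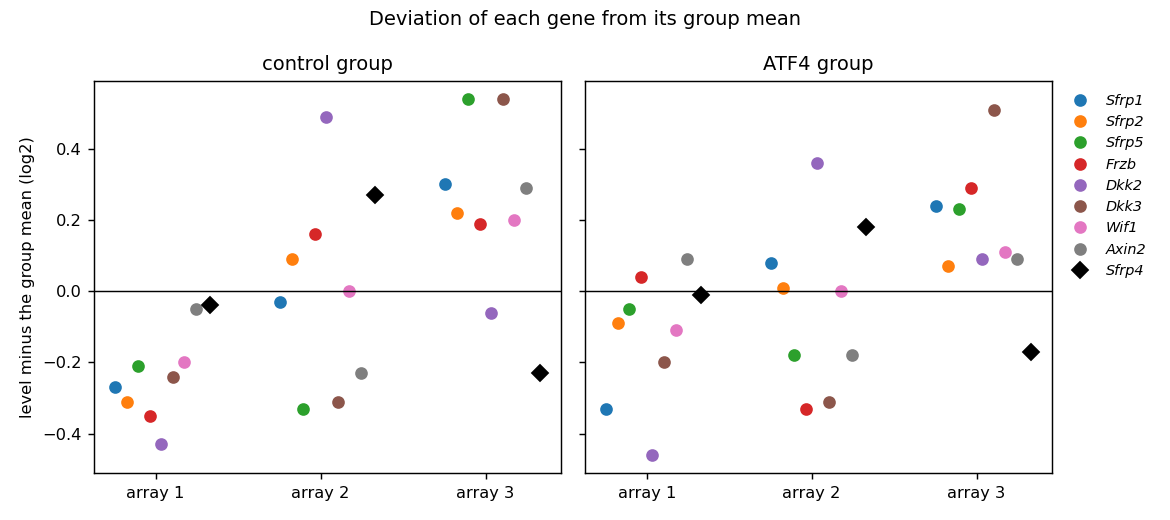
Level of each gene minus its group mean (log2) on arrays 1, 2 and 3 of the control and the ATF4 group; each coloured point is a gene and black diamonds are Sfrp4. On array 3 of the control group 7 of the 8 coloured points lie above 0, on array 3 of the ATF4 group 8 of 8, and Sfrp4 lies below 0 in both.

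Around these antagonists, other genes of the Wnt pathway passed the threshold about as often as all rows did. Nothing is therefore read from the counts about the pathway itself. Of 124 other genes listed in 6 groups by role, 111 had a row of their own. In the limma fit 0 of these passed an adjusted p of 0.05, beside 0.593% of all rows. At an unadjusted p below 0.05 there were 4, where 5.26% of all rows stood. The 111 genes had a median difference of -0.04 and a range of -0.59 to 0.61. With the sample number as a block 3 passed, 2.70% of the 111 beside 3.56% of all rows, 2 of them higher and 1 lower in ATF4 arrays, where 2.4% of all rows were called higher and 1.16% lower. Without number 2 arrays the block fit passed Fzd4, Daam1 and Ccnd1, and without number 1 or without number 3 it passed 0.

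Wnt ligands were all measured (19 of 19) and 0 passed with or without the block, with differences from -0.23 to 0.14 and a median of -0.08. Wnt5a, a ligand best known for signalling without beta-catenin, had 4.78 ± 0.04 in control and 4.60 ± 0.08 in ATF4 arrays (n = 3 per group), and Wnt9a had 6.27 ± 0.43 and 6.04 ± 0.32. Receptors and co-receptors (15 of 16 measured) also had 0 past the threshold with or without the block, with a median of -0.08. Fzd4, a Frizzled receptor, had 5.51, 5.77 and 5.32 on control and 6.20, 5.80 and 5.82 on ATF4 arrays. The difference was 0.41 (limma adjusted p = 1 without the block and 0.215 with it). Its groups did not overlap, as for 9.12% of all rows. Fzd10 had a difference of -0.30 (limma adjusted p = 1 without the block and 0.131 with it). Other modulators outside the cell or in its membrane, such as R-spondins, Kremen proteins and glypicans, had 23 of 27 genes measured and 0 past the threshold in either fit, with a median of -0.04. Among them the glypican gene Gpc4 had a difference of 0.28 and Porcn, the enzyme that attaches a lipid to Wnt proteins, -0.19.

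Of the cytoplasmic components, 24 of 29 were measured, with differences from -0.4 to 0.61 and a median of 0.03. The mean was higher in ATF4 arrays for 15 and lower for 9. With the block 2 rose and 0 fell, and without it 0 passed. Dvl3, one of the Dishevelled proteins that relay the signal from Frizzled, had 6.83, 6.65 and 6.64 on control and 7.30, 7.09 and 7.26 on ATF4 arrays. The 2 groups of Dvl3 did not overlap, as for 9.12% of all rows. Its difference was 0.51 with an interval of 0.13 to 0.89 (limma adjusted p = 0.484 without the block and 0.0394 with it). The call with the block ended after quantile normalization (limma adjusted p = 0.0594) and after scaling to one interquartile range (0.0567). Daam1, a formin that links Dishevelled to the actin cytoskeleton, had 7.67, 7.37 and 6.89 on control and 8.13, 8.06 and 7.56 on ATF4 arrays. Its groups overlapped, but each numbered pair was higher in ATF4, with a difference of 0.61 (limma adjusted p = 0.758 without the block and 0.0279 with it). Nuclear factors had 12 of 15 genes measured and 0 past the threshold in either fit, with a median of -0.01. In that group Tcf7l2 had a difference of 0.20 and Pygo2 -0.16.

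Target genes of beta-catenin were all measured (18 of 18), with a median of -0.05, 0 past the threshold without the block and 1 with it. Ccnd1, the G1 cyclin, had 7.17, 7.20 and 7.27 on control and 6.64, 6.54 and 6.70 on ATF4 arrays. The groups did not overlap, as for 9.12% of all rows. The difference was -0.59 with an interval of -0.96 to -0.22 (limma adjusted p = 0.269 without the block and 0.0228 with it). Tnfrsf19, a receptor of the TNF receptor family, had a difference of 0.30 (limma adjusted p = 1 without the block and 0.173 with it).

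**Figure D4:**
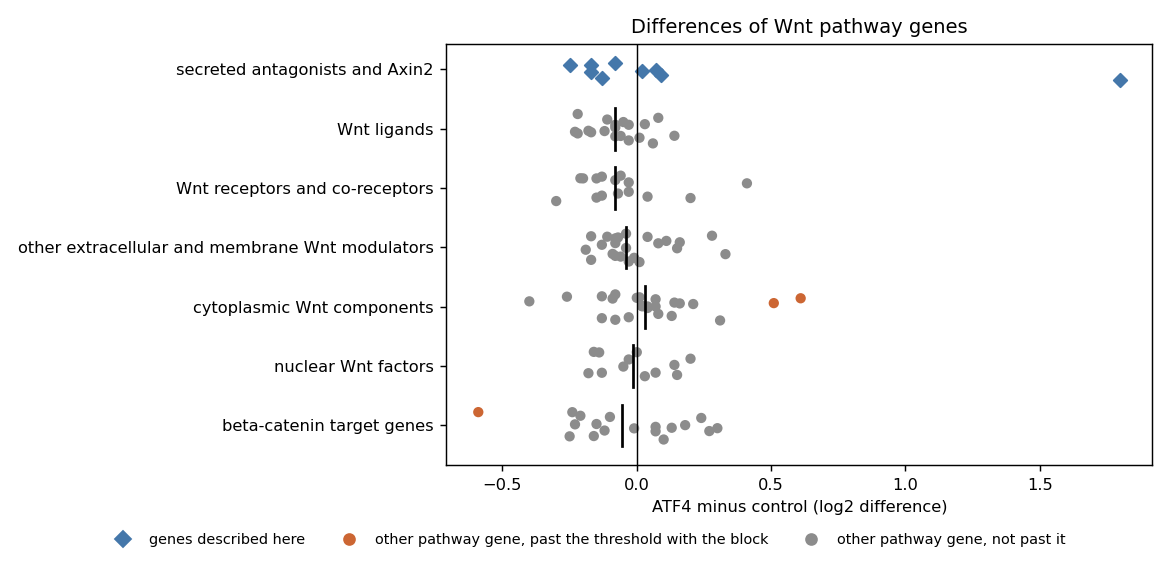
ATF4 minus control (log2 difference) for 111 other Wnt pathway genes by role and, in the top row, for the 9 genes described here; each point is a gene, black bars are list medians and points are spread vertically only to separate them. Orange points (Dvl3, Daam1 and Ccnd1) passed an adjusted p of 0.05 with the sample number as a block, and Sfrp4 lies alone at 1.80.

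Markers of the cells were examined beside these values. The myotube list (9 of 15 genes with a row of their own) lay high on the arrays, with a median percentile of 95.8, and Tnnc2, the fast troponin C, had 11.50 ± 0.28 in control and 11.02 ± 0.32 in ATF4 arrays. All 9 had a lower mean in ATF4 arrays (median -0.30). None passed without the block, and 2 fell with it, 22.2% of the 9 beside 1.16% of all rows called lower with the block. These were Tnnc2 (limma adjusted p = 0.0397) and the fusion gene Mymk (limma adjusted p = 0.0392). Fibroblast markers, 12 of 12 measured, had 0 past the threshold in either fit. Their median difference was 0.09 and their mean level ran from 6.57 to 6.80 in control and from 6.71 to 6.86 in ATF4 arrays. Summed on the linear scale, they came to 2917 to 3055 in control and 3182 to 3271 in ATF4 arrays. The brightest of these 12 rows, Dcn (10.25 in control and 10.45 in ATF4 arrays), weighs most in the sum. For the myotube list the sum was 7431 to 11511 in control and 5903 to 9120 in ATF4 arrays. Of the fibroblast markers, 10 had a higher and 2 a lower mean in ATF4 arrays. Dpt, the dermatopontin gene, had the largest difference of that list, 0.48 (limma adjusted p = 0.853). Undifferentiated myoblast markers (9 of 10, median -0.03), osteoblast and chondrocyte markers (7 of 10, median -0.06) and adipocyte markers (7 of 8, median -0.10) had 0 past the threshold in either fit. The lowest p-values of these lists belonged, in that order of lists, to Top2a (difference -0.47) and Mki67 (-0.33), to Alpl (0.31) and Col2a1 (-0.20), and to Adipoq (-0.35) and Lpl (-0.19). In RNA from whole cultures a change in the share of a cell type and a change in RNA per cell cannot be told apart, and the part of these markers in the level of Sfrp4 was not tested.

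Among genes with a row of their own, those whose levels over the 6 arrays were most like those of Sfrp4 were Nat9, Trpc1, Reep6, Vldlr and Iah1, with Pearson r between 0.991 and 0.998. Since the 6 arrays form 2 groups, r here counts the difference between groups as well as the spread within them. The cation channel gene Trpc1 had 5.57 ± 0.37 in control and 7.50 ± 0.26 in ATF4 arrays. Vldlr, a lipoprotein receptor, had 5.68 ± 0.31 and 7.80 ± 0.07. Reep6, an endoplasmic reticulum membrane protein, had 6.70 ± 0.11 and 8.34 ± 0.13. The lowest r, from -0.996 to -0.990, belonged to Cav3, Spryd4, Haspin, Fgfbp1 and Ccnd1. None of these passed the threshold without the block. The muscle caveolin Cav3 differed by -0.47 (limma adjusted p = 0.542 without the block) and the mitotic kinase gene Haspin by -0.66 (0.201). With the group means removed, the most alike were Mcee, Shprh, Zcchc7, Msh3 and Qpct (r from 0.997 to 0.998), of which Mcee and Zcchc7 differed between groups by 0.04 and 0.03. By the first measure, r of the other 8 genes of the list with Sfrp4 ran from -0.729 for Wif1 to 0.117 for Sfrp1. This measure counts the difference between groups, large for Sfrp4 and small for these 8, so nothing is read from it. With group means removed, r with Sfrp4 ran from -0.931 for Axin2 to 0.559 for Dkk2. No share of all rows stands beside these values, so nothing is read from their sign. On the number 3 arrays, rows of like level to these 8 genes also lay above their group mean (medians 0.24 in control and 0.18 in ATF4). Sfrp4 lay below its group mean there (-0.23 and -0.17).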

How the data were processed

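RNA from 3 control and 3 ATF4 samples was amplified, labelled with biotin and measured on exon arrays, per the labels' protocols. GCOS, RMA and build mm9 are named in the submitters' processing notes. Versions are not given in the labels. The authors deposited 1 value per transcript cluster and array, from 1.22 to 12.44, read here as log2. Of 16700 rows, 14988 had 1 gene symbol in the platform annotation, 1018 several and 694 none. Depth does not apply to arrays, and their number limits the precision.

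Differences are ATF4 minus control from limma 3.58.1 in R 4.3.3 (lmFit, eBayes, two-sided, no filter), with Benjamini-Hochberg adjustment over all rows and a threshold of 0.05. Intervals are 95% intervals from the moderated fit. Where a gene had several rows, the one brightest on average was used. The fit was tested on simulated data. Array deviations from group means correlated by 0.578, 0.636 and 0.782 between groups for the same sample number and by -0.666 to 0.221 otherwise. The titles give the numbers but state no pairing. Since each same-number value exceeds 0.1, the numbers were taken to pair the samples, with the block as an alternative. Between numbers 1 and 2 the values were 0.168 and 0.221, also above 0.1, so this limit alone does not single out the pairs. Alternatives were rescalings, filters on dim rows, eBayes settings, array weights and arrays left out. The block combined with rescalings was added after seeing the data.

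The 9 genes and all lists were chosen with earlier results of these data known. For each list the named genes were up to 4 past the threshold with the largest change, or the 2 of lowest p if at most 1 had passed. Daam1, Dvl3 and Ccnd1 fall under that rule. For likeness to Sfrp4 the 5 genes at each end were named.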

Additional observations from a re-analysis of the deposited data

How the results depend on the processing

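The difference of Sfrp4 ran from 1.68 to 1.94 over 18 alternatives. Those of the other 8 genes lay between -0.38 and 0.3, and only Wif1 kept the same sign throughout (-0.35 to -0.15). The median of -0.10 over these 8 genes ranged from -0.26 (without control array 1) to 0.06 (without control array 3) with 1 array left out. It was -0.17 to -0.01 with the replicate block and 1 number left out. The 99 rows past the threshold over all rows became 594 with the replicate block, 57 after centring on the median, 151 after cyclic loess and 561 with array weights. Leaving out 1 array gave 38 to 243, with 49 without control array 1, 243 without control array 3, 38 without ATF4 array 1 and 44 without ATF4 array 2. With the replicate block and number 1, 2 or 3 left out there were 354, 630 and 261. With the replicate block and quantile normalization, centring, cyclic loess or scaling there were 565, 612, 616 and 500.

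The count of other Wnt pathway genes past the threshold was 0, 3 with the replicate block, 1 with array weights (Ccnd1) and 3 with the block without number 2. It was 2, 3, 3 and 2 with the block and those 4 rescalings, with Daam1 and Ccnd1 among them each time and Dvl3 lost after quantile normalization and scaling. The causes were not tested. Motif counts in the 7 windows remained 0 in the 100 bases before the start. The 3 arrays per group limit the precision, as the width of the intervals shows.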

Other observations

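The genes beside Sfrp4 in the RefSeq table (GRCm38.p6, used for gene order alone) were looked up after the values of Sfrp4 had been seen, taking the 3 nearest protein-coding genes with a row of their own on each side. Gpr141, an orphan G-protein-coupled receptor gene, rose from 4.92 ± 0.31 to 6.36 ± 0.12 (SD, n = 3), a difference of 1.44 (limma adjusted p = 0.011 without a replicate block, 0.0143 with it). The call ended without control array 1 (limma adjusted p = 0.0637) and without ATF4 array 1 (0.0878). Elmo1, a regulator of Rac signalling, had 4.43 ± 0.10 in control and 5.25 ± 0.17 in ATF4 arrays, without overlap (limma adjusted p = 0.0958 without the block, 0.0177 with it). Between Sfrp4 and these genes, Gpr141b had a difference of -0.03. On the other side, Epdr1, the direct neighbour, had 0.26, Stard3nl 0.47 without overlap between groups, and Amph -0.10. Their limma adjusted p was 1, 0.67 and 1 without the block and 0.28, 0.103 and 0.618 with it. The differences of these 6 neighbours thus varied along the row of genes, and no relation between them was tested.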
